A study of Mus musculus with 7 samples.

Results

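The genes described here are 39 neutrophil and monocyte lineage genes, picked by symbol from a table of 54347 genes measured in sorted mouse blood stem cells. Each of the 39 symbols matched 1 row. They were placed by their known role into 6 groups. The groups hold 6 primary granule and early precursor genes, 7 secondary granule genes, 5 gelatinase granule and late neutrophil genes, 12 monocyte and macrophage genes, 3 genes of the oxidase and its proton channel, and 6 regulators and receptors. The choice by symbol uses no measured value.

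The cells were LT-HSCs, the rare marrow cells able to rebuild all blood lineages for a lifetime, sorted from female Emcn-/- mice (KO, 3 mice) and female Emcn+/+ littermates (WT, 4 mice). All 7 mice carry the strain label C57BL/6N-EMCN em1(IMPC)Wtsi /WtsiH. Endomucin, the product of Emcn, is a membrane mucin of endothelial and stem cells. Which exons the em1 allele lacks was not stated by the labels. The labels give no age and no treatment. Each library holds the RNA of 3000 to 5000 cells of a single mouse, and libraries are named by genotype and mouse number (wt_284). Marrow was first depleted of lineage-positive cells, and the antibody panel included Gr-1 and CD11b, which mark neutrophils and monocytes, and CD16/CD32, which marks granulocyte and monocyte progenitors. The labels give the antibodies but not the gates.

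Neutrophils form in the marrow through ordered stages, and their granule proteins are made in that order. Promyelocytes make the primary (azurophil) granule proteins, such as myeloperoxidase and the serine proteases. Myelocytes make the secondary (specific) granule proteins, such as lactoferrin, and later stages make gelatinase granule proteins and large amounts of the cytosolic S100 proteins. Monocytes share the early precursors and then express the receptor of macrophage colony-stimulating factor. PU.1, the C/EBP factors and IRF8 steer these choices, and stem cells carry low levels of several of these regulators before commitment.

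Library totals ran from 6444134 to 11101774 counts. Emcn had 130 to 327 counts in the WT libraries and at most 1 count in a KO library. The sum of 12 stem cell markers was 1802 CPM in wt_284, 2624 to 3112 CPM in the rest of WT and 2754 to 3001 CPM in KO, and wt_284 was the highest library for 0 of the 12. CPM are counts scaled to library size and composition. The library wt_284 stood apart: besides its lower stem cell markers it held 4952 CPM of 13 erythroid markers, where the remaining WT libraries held 639 to 1514 CPM and KO 692 to 889 CPM. It also held the most RNA of every one of the 39 genes. Among all 15372 genes tested, 23.1% were highest in wt_284. Group sums and the fold changes printed for these genes are therefore given with and without this library, where the gene could be tested without it.

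**Figure D1:**
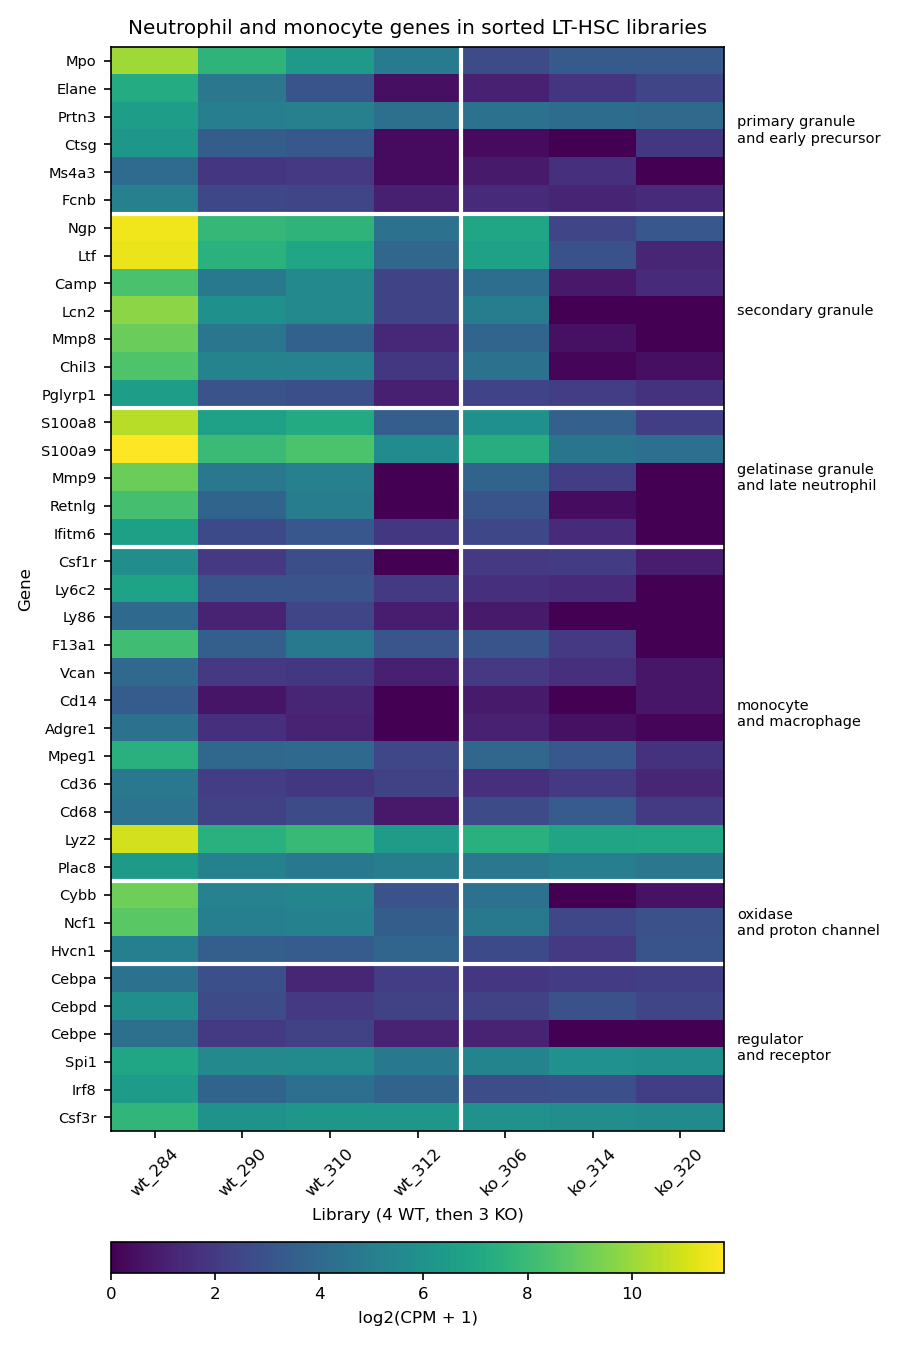
Level of the 39 genes, as log2(CPM + 1), in 4 WT and 3 KO libraries, with genes ordered by role. The wt_284 column is the brightest for all 39 genes, and 6 genes stay at 10 CPM or more in all 7 libraries.

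The 39 genes together took 1.77% of all counts in wt_284, 0.178% in both wt_290 and wt_310, and 0.0461% in wt_312. The KO shares were 0.104% (ko_306), 0.0406% (ko_314) and 0.0352% (ko_320). The genotypes overlapped, since wt_312 was lower than ko_306. With the scaling, WT averaged 5906 ± 9204 CPM (SD, n = 4) and KO 585 ± 353 CPM (SD, n = 3). The WT mean was 10.1 times the KO mean, and 2.25 times without wt_284. In bulk RNA of this kind, fewer cells of a type and less RNA per cell cannot be told apart.

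None of the 39 genes differed between KO and WT at an adjusted p under 0.05 in edgeR, where 0.00651% of all tested genes were called lower (1 gene, Emcn) and 0 were called higher. Of the 39, 38 passed the filter on low counts and Cd14 did not. All 38 had negative log2 fold changes, as did 52.4% of all tested genes, and their median was -3.52 against -0.02 over all tested genes. An unadjusted p under 0.05 was reached by 8 genes, all lower in KO: Mpo, Prtn3, Fcnb, Ly86, Cd36, Hvcn1, Cebpe and Irf8. The share of all tested genes that were lower at that level was 1.99%. Every KO library lay below every WT library for 7 of the 39 genes, namely Mpo, Ly6c2, Ly86, F13a1, Hvcn1, Irf8 and Csf3r, and the same held for 2.43% of all tested genes. The 39 genes are not independent, and genes that passed the filter only through their WT level had to differ, so these counts are descriptions.

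Without wt_284, 35 of the genes passed the filter, 32 of them with negative values, and the median was -1.28 against 0.00 over all tested genes. edgeR again called 0 of them (0.0134% of all genes lower), while 5 had an unadjusted p under 0.05 (Mpo, Prtn3, Ly6c2, Hvcn1 and Irf8), against 1.03% of all genes lower at that level. DESeq2 called 1 gene with all libraries, Mpo, and 0.0651% of all genes lower. It returned no p for 13 of the 38 genes, and 18 were lower at an unadjusted p under 0.05 (3.29% of all genes). Limma-voom called 0, with 7 lower at an unadjusted p under 0.05 (1.49% of all genes). A fit that is not robust to outlying genes put 29 at that level, against 2.97% of all genes. The intervals are wide: for 18 of the 38 genes the 95% interval of the fold change spans more than 2-fold in both directions, so a change of that size was not detectable for them.

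**Figure D2:**
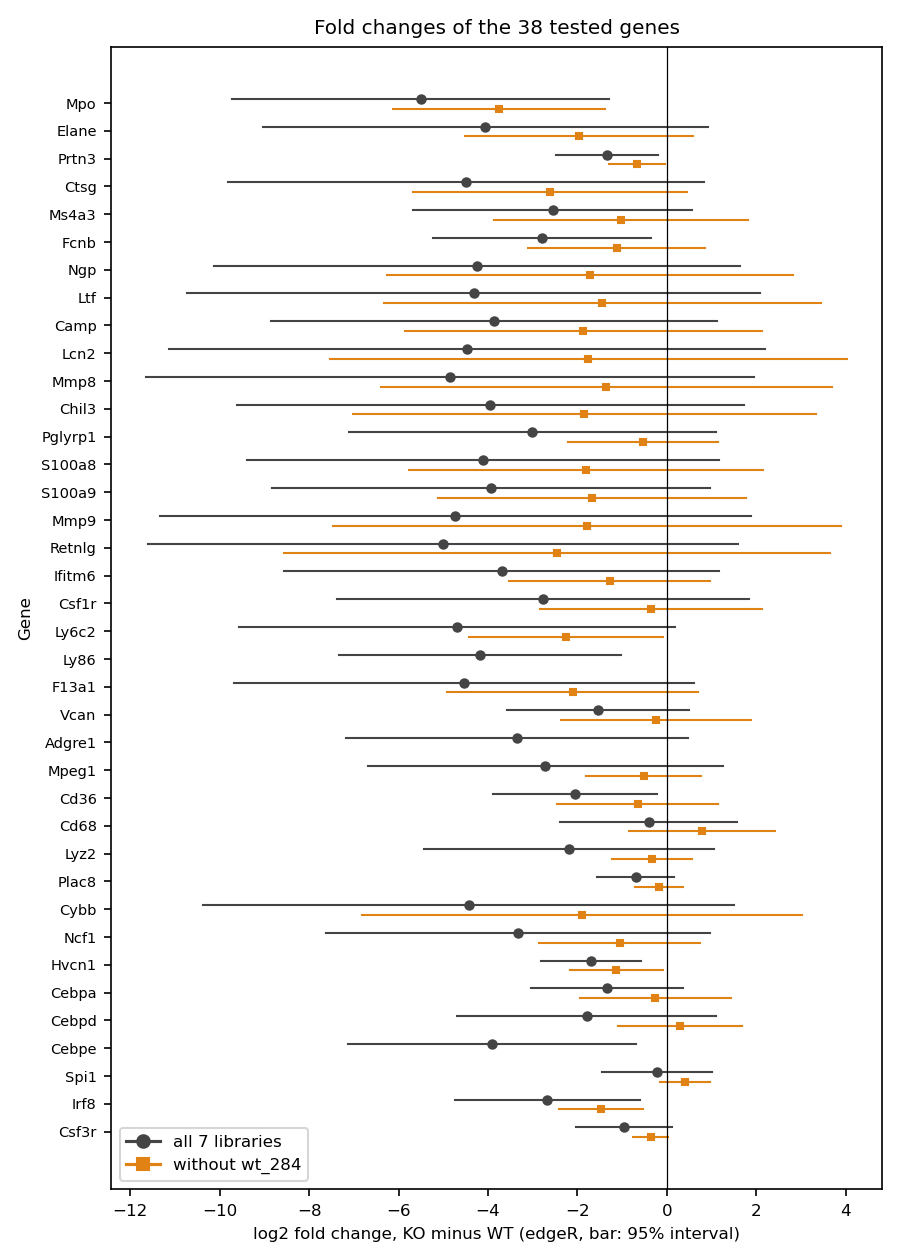
Log2 fold change (KO minus WT) with its 95% interval for the 38 tested genes, with all 7 libraries (grey circles) and without wt_284 (orange squares; Ly86, Adgre1 and Cebpe then failed the filter). All 38 grey points are below 0, and 3 orange points (Cd68, Cebpd and Spi1) are above it.

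Primary granule and early precursor genes were scarce in all 3 KO libraries. Their summed level in wt_284, wt_290, wt_310 and wt_312 was 1450, 277, 136 and 48.5 CPM. In ko_306, ko_314 and ko_320 it was 29.5, 31.6 and 33.9 CPM, so every KO sum was below every WT sum. This separation rests on Mpo: without it, in a sum added after seeing the data, wt_312 stood at 21.3 CPM and ko_306, ko_314 and ko_320 at 24.1, 22.7 and 25.1 CPM. Much of each KO sum was Prtn3, while Elane, Ctsg and Ms4a3 varied several-fold between KO libraries. The means were 478 ± 655 CPM (SD, n = 4) and 31.7 ± 2.17 CPM (SD, n = 3), a ratio of 15.1, or 4.85 without wt_284. All 6 genes were tested, with a median log2 fold change of -3.43 (-1.54 without wt_284). An unadjusted p under 0.05 was reached by 3, against 1.99% of all tested genes lower at that level.

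Mpo (ENSMUSG00000009350.13, chromosome 11, 87793581 to 87804413, plus strand, GRCm38) encodes myeloperoxidase, the enzyme that makes hypochlorous acid in the primary granule. Its level was 1084, 203, 79.2 and 27.2 CPM in wt_284, wt_290, wt_310 and wt_312, and 5.42, 8.95 and 8.79 CPM in ko_306, ko_314 and ko_320. The lowest WT library was thus above the highest KO library, and the counts behind these values were 212 to 8945 in WT and 60 to 69 in KO. The log2 fold change was -5.51 ± 1.66 (SE), with an adjusted p of 0.992 in edgeR. Without wt_284 it was -3.76 ± 0.90 (SE), with an interval from -6.13 to -1.38 and an adjusted p of 0.999. The call depended on the tool and the libraries. DESeq2 gave an adjusted p of 0.0126 with all libraries and 0.00761 without wt_284, where it called 0.0336% of all genes lower. edgeR gave 0.020 with only wt_310, wt_312 and the KO mice, all numbered above 300, where 0.019% of all genes were called lower. Over all 16 alternatives the adjusted p ran from 0.00761 to 0.9999, and 3 passed.

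Elane (chromosome 10, 79886247 to 79888215) encodes neutrophil elastase. Its level was 148, 24.1, 7.34 and 0.385 CPM in the WT libraries in the same order, and 1.12, 2.54 and 4.58 CPM in the KO libraries. Unlike Mpo, it overlapped between genotypes, because wt_312 was the lowest of the 7 libraries with 3 counts. The log2 fold change of Elane was -4.06 ± 1.97 (SE), and -1.96 ± 1.12 (SE) without wt_284.

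Prtn3, which encodes proteinase 3 and lies just upstream of Elane on the same strand (79874476 to 79883174), was far steadier. It stood at 93.7, 31.9, 33.6 and 19.4 CPM in wt_284, wt_290, wt_310 and wt_312, and at 20.2, 16.7 and 16.0 CPM in ko_306, ko_314 and ko_320. Its highest library was 5.84 times its lowest, against 385 times for Elane, whose lowest value rests on 3 counts. Per 100 Elane counts there were 63.1 Prtn3 counts in wt_284, 350 to 1808 in the KO libraries and 5033 in wt_312 (exact 95% interval 1690 to 24680), so these neighbouring genes kept no fixed ratio in either genotype. The Prtn3 log2 fold change was -1.34 ± 0.50 (SE), and -0.68 ± 0.29 (SE) without wt_284. With all libraries edgeR called it with no filter on low counts (adjusted p 0.00296), where 0.256% of all genes were called lower. The other 15 alternatives did not.

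Ctsg, which encodes cathepsin G, had 604, 107, 55 and 2 counts in the WT libraries and 3, 0 and 22 counts in ko_306, ko_314 and ko_320. Fcnb, a ficolin of early neutrophil precursors, and Ms4a3, a gene of granulocyte and monocyte progenitors, were low outside wt_284. Fcnb stood at 34.1 CPM there and at 1.03 to 4.91 CPM in the other 6 libraries, and Ms4a3 at 16.5 CPM and 0 to 2.90 CPM. Fcnb was also called by edgeR with no filter (adjusted p 0.00980).

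Secondary granule genes followed another order of libraries. They summed to 7926, 564, 467 and 48.2 CPM in wt_284, wt_290, wt_310 and wt_312, and to 313.95, 16.0 and 13.8 CPM in ko_306, ko_314 and ko_320. Here ko_306 was above wt_312, so the genotypes overlapped. The means were 2251 ± 3790 CPM (SD, n = 4) and 115 ± 173 CPM (SD, n = 3), a ratio of 19.7, or 3.14 without wt_284. All 7 genes were tested, 0 had an unadjusted p under 0.05, and the median log2 fold change was -4.24 (-1.72 without wt_284, -7.60 without ko_306).

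Ngp (chromosome 9, 110419747 to 110423012, plus strand), a granule protein of the cystatin and cathelicidin kind, led the group. It had 24353, 2426, 1298 and 157 counts in wt_284, wt_290, wt_310 and wt_312, and 1403, 30 and 63 in ko_306, ko_314 and ko_320. Ltf (chromosome 9, 111019271 to 111042767), the iron-binding lactoferrin, had 22894, 1930, 798 and 109 counts in WT and 1238, 45 and 11 in KO. Scaled for depth, ko_306 stood at 121 CPM of Ngp and 107 CPM of Ltf. That was below wt_310 (198 and 122 CPM) and wt_290 (229 and 182 CPM). For both genes the other KO libraries were at the foot of the range. Log2 fold changes were -4.24 ± 2.31 (SE) for Ngp and -4.32 ± 2.52 (SE) for Ltf, and -1.72 ± 1.66 and -1.44 ± 1.79 (SE) without wt_284.

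Camp (chromosome 9, 109847379 to 109849617), the cathelicidin precursor, stood at 340, 26.3, 46.2 and 4.37 CPM in WT and at 17.9, 0.746 and 1.66 CPM in KO, in the same order of libraries. Lcn2, the siderophore-binding lipocalin, stood at 854, 58.5, 45.8 and 4.37 CPM in WT and at 31.0 CPM in ko_306, and had 0 counts in ko_314 and ko_320. A count of 0 allows up to 0.447 and 0.382 CPM in those libraries. Mmp8, the collagenase of specific granules, and Chil3, a chitinase-like protein of neutrophil precursors and macrophages, went from 543 and 369 CPM in wt_284 to at most 0.447 CPM in ko_314 and ko_320. Its close copy Chil4 had at most 7 counts in a library, and how reads were split between them can affect the value. Pglyrp1, a bactericidal peptidoglycan-binding protein, was the exception: it stood at 1.03 CPM in wt_312 but at 3.43 and 2.29 CPM in ko_314 and ko_320. For the other 6 genes both of these KO libraries lay below every WT library, while ko_306 was above wt_312 for all 7.

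The promoters of Mpo, Elane, Ngp and Ltf are shown because these genes carry the contrast of early and late granule genes described here. They run from 250 bases before to 50 bases after the RefSeq start of each gene (GRCm38.p6), read 5′ to 3′ on the strand of the gene. Capitals mark matches to TTGCNNAA, a C/EBP-like motif, and to GAGGAA, a PU.1-like motif, on either strand.
Mpo (chr11:87793534-87793833, plus): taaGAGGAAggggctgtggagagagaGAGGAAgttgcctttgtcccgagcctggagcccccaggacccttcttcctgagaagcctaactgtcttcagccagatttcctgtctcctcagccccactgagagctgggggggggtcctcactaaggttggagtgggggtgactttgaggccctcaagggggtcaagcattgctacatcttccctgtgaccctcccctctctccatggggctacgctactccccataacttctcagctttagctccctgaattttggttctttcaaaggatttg
Elane (chr10:79886062-79886361, plus): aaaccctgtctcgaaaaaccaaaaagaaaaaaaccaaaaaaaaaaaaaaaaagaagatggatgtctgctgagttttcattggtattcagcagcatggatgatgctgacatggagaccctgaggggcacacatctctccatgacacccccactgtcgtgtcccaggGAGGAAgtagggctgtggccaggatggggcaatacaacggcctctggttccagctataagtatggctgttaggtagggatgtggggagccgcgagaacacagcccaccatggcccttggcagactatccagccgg
Ngp (chr9:110419558-110419857, plus): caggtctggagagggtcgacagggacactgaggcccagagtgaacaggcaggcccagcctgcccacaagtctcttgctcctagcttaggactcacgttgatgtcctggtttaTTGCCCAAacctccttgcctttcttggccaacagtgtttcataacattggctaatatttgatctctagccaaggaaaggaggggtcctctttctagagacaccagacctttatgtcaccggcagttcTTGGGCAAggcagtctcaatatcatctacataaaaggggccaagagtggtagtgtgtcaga
Ltf (chr9:111019042-111019341, plus): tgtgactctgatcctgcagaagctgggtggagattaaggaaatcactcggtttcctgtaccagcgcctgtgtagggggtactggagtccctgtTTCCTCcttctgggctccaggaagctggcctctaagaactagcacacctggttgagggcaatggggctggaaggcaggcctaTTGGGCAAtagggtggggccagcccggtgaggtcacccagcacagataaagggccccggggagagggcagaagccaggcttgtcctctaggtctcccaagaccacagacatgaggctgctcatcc
Mpo held 2 PU.1-like matches and Elane 1, and neither held a C/EBP-like match. Ngp held 2 C/EBP-like matches and no PU.1-like match, and Ltf held 1 of each. These genes do not stand for their groups. Among the 6 primary granule and early precursor genes 2 held a C/EBP-like and 5 a PU.1-like match. Among the 7 secondary granule genes 4 held each. Fcnb, of the first of these groups, held 2 C/EBP-like matches and no PU.1-like match, Pglyrp1 held the reverse, and Camp and Chil3 held neither. Promoters were listed for 31 of the 39 genes. The C/EBP-like motif was in a listed promoter of 32.3% of these genes, against 10.8% of all 32851 promoters. The PU.1-like motif was in 51.6% of them against 28.3% of all promoters. Some genes have more than 1 listed promoter. The shares of these genes count a gene if any of its promoters held a match, whereas the shares of all promoters count each promoter. The units thus differ, and a match of letters is a description only.

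Gelatinase granule and late neutrophil genes followed the order of the secondary granule genes, with wt_310 above wt_290. They summed to 5918, 408, 569 and 63.4 CPM in wt_284, wt_290, wt_310 and wt_312, and to 245, 39.4 and 22.5 CPM in ko_306, ko_314 and ko_320. The means were 1740 ± 2794 CPM (SD, n = 4) and 102.2 ± 124 CPM (SD, n = 3), a ratio of 17.0, or 3.39 without wt_284. The group overlapped between genotypes through ko_306. All 5 genes were tested and 0 had an unadjusted p under 0.05.

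S100a9 (chromosome 3, 90692632 to 90695721, minus strand) and S100a8 (chromosome 3, 90668978 to 90670035, plus strand) encode the subunits of calprotectin. S100a9 stood at 3497, 260, 348 and 49.96 CPM in WT and at 161, 22.8 and 19.0 CPM in KO. S100a8 stood at 1442, 104, 148 and 10.8 CPM in WT and at 58.6, 11.0 and 3.57 CPM in KO. S100a8 had 36.4 to 42.5 counts per 100 S100a9 counts in wt_284, wt_290, wt_310 and ko_306. In the libraries with least signal the ratio was 21.6 in wt_312, 48.4 in ko_314 and 18.8 in ko_320, with exact intervals reaching from 12.1 to 64.2. Log2 fold changes were -3.93 ± 1.93 (SE) for S100a9 and -4.10 ± 2.08 (SE) for S100a8, and -1.68 ± 1.26 and -1.81 ± 1.45 (SE) without wt_284.

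Mmp9, the gelatinase of late granules, had 4614, 268, 222 and 0 counts in wt_284, wt_290, wt_310 and wt_312, and 152, 24 and 0 counts in ko_306, ko_314 and ko_320. Retnlg, a resistin-like gene of mature neutrophils, had 0 counts in wt_312 and ko_320 and 2 counts in ko_314, against 2623 in wt_284. Ifitm6 had 843 counts in wt_284 and 0 in ko_320. Mmp9 and Retnlg were thus at 0 in a library of each genotype, while Ifitm6 had 21 counts in wt_312 and S100a8 and S100a9 were at 0 in none.

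**Figure D3:**
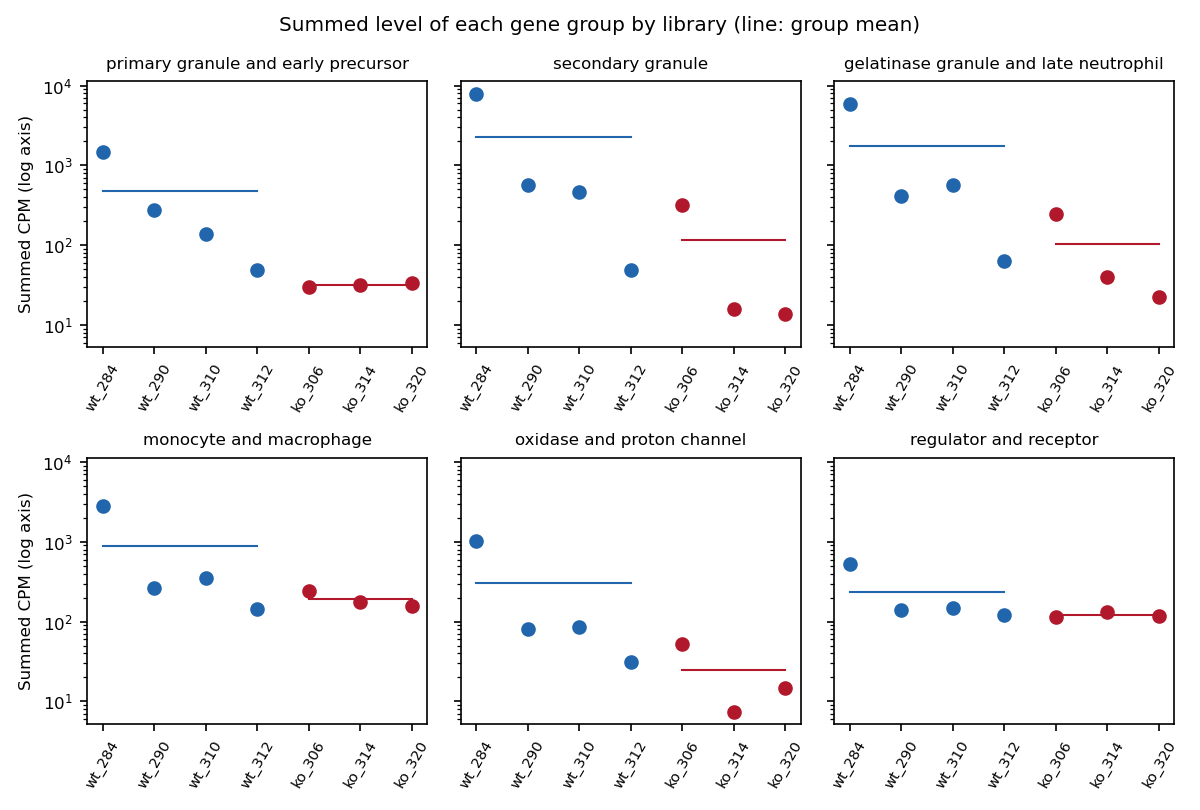
Summed CPM (log axis) of each of the 6 gene groups in every library, with WT in blue, KO in red and a line at each group mean. Primary granule genes lie between 29.5 and 33.9 CPM in all 3 KO libraries, whereas secondary granule genes run from 13.8 to 313.95 CPM there.

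The early and late granule genes can be compared within a library, where depth and scaling cancel. Per 100 Ngp counts, Mpo had 36.7 counts in wt_284 (exact 95% interval 35.8 to 37.6) and 88.7 (83.7 to 94.0) in wt_290. The values were 39.9 (36.0 to 44.2) for wt_310 and 135 (109 to 167) for wt_312. In ko_306 it had 4.49 (3.43 to 5.78), far below every WT library. In ko_314 there were 60 Mpo and 30 Ngp counts (interval of the ratio 127 to 321), and in ko_320 the value was 110 (76.7 to 157). The lowest and highest values were thus both in KO libraries, ko_306 and ko_314, while ko_320 lay inside the WT range. The ko_314 interval overlapped that of wt_312, so only ko_306 was clearly outside WT. No common difference between genotypes appeared in this ratio. The intervals cover counting error only. As a share of the counts of all 39 genes, the secondary granule genes held 40.3%, 32.6%, 26.6% and 10.6% in the WT libraries and 31.7%, 3.96% and 3.81% in ko_306, ko_314 and ko_320. The primary granule genes held 7.37%, 16.0%, 7.74% and 10.7% in WT and 2.98%, 7.85% and 9.37% in KO.

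Elane and Ctsg were also low against Ngp in ko_306, and Prtn3 was not. Elane had 0.927 counts per 100 Ngp counts in ko_306 (0.492 to 1.59), against 5.03, 10.5, 3.70 and 1.91 in wt_284, wt_290, wt_310 and wt_312. Ctsg had 0.214 in ko_306 (0.0440 to 0.626), and 2.48, 4.41, 4.24 and 1.27 in the WT libraries. The wt_312 values rest on 3 and 2 counts, with intervals of 0.390 to 5.69 and 0.153 to 4.68, which overlap those of ko_306. In ko_314 and ko_320 Elane had 56.7 and 57.1 and Ctsg had 0 and 34.9. Prtn3 had 16.7 in ko_306, inside the WT range of 3.17 to 96.2. Secondary granule pairs kept a narrower ratio in the WT libraries and ko_306. In ko_314 and ko_320 Lcn2 fell below the WT range, Ltf did so only in ko_320, and Camp stayed inside it. Lcn2 had 21.7 to 28.9 counts per 100 Ngp counts in the 4 WT libraries and 25.7 in ko_306, and 0 in ko_314 and ko_320, where the intervals reach 13.1 and 6.03. Ltf had 61.5 to 94.0 in WT and 88.2 in ko_306. It had 150 (92.4 to 247) in ko_314, where the interval reaches the WT range, and 17.5 (8.30 to 33.4) in ko_320, below that range. Camp had 11.5 to 23.3 in WT, 14.8 in ko_306, 16.7 in ko_314 and 20.6 in ko_320.

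**Figure D4:**
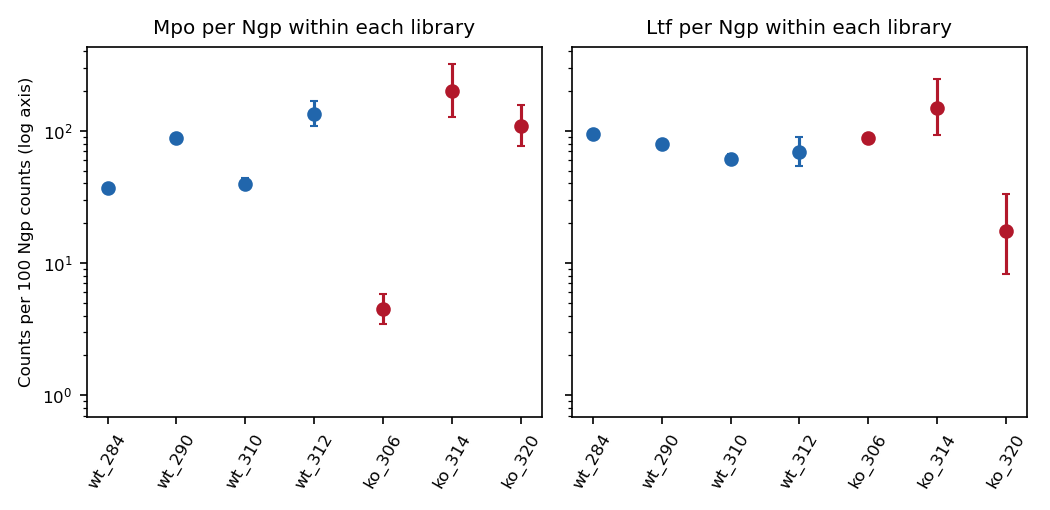
Counts of Mpo (left) and Ltf (right) per 100 counts of Ngp in each library on a log axis, with exact 95% counting intervals, WT in blue and KO in red. For Mpo, ko_306 stands at 4.49, against 36.7 or more in the other libraries. For Ltf it stands at 88.2, within the WT range of 61.5 to 94.0. There ko_320 lies below that range, and ko_314 lies above it with an interval that reaches it.

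Set against wt_290, ko_306 held 0.527 to 0.682 of the level of each of the 7 secondary granule genes and 0.517 to 0.928 of each late neutrophil gene. For primary granule and early precursor genes these fractions were 0.0267 for Mpo, 0.0465 for Elane and 0.0256 for Ctsg. They were 0.293 for Ms4a3, 0.351 for Fcnb and 0.634 for Prtn3. These are single libraries, so the contrast carries no test between genotypes, and it depends on the WT library chosen. Mpo, Elane and Ctsg were also lower in ko_306 than in wt_310. In wt_312 Mpo was higher, at 27.2 against 5.42 CPM in ko_306. Elane and Ctsg were not, at 0.385 and 0.257 CPM in wt_312 against 1.12 and 0.258 CPM in ko_306. Relative to wt_284, secondary granule genes in wt_290 stood at 4.37% to 10.04% with a median of 7.49%. In wt_310 they spread more widely, at 2.11% to 13.6%. In ko_306 they stood at 2.49% to 5.38% with a median of 4.09%, and in wt_312 at 0.284% to 1.29%.

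**Figure D5:**
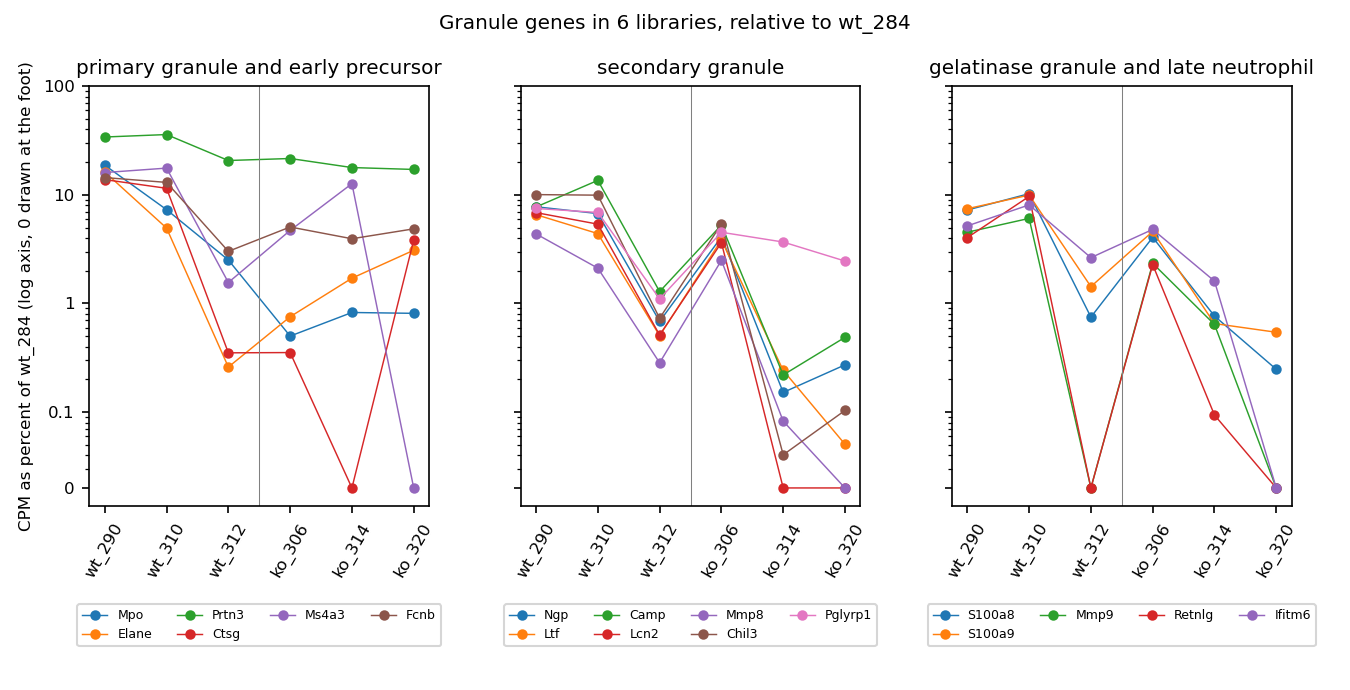
Level of each granule gene as a percent of its level in wt_284 (log axis, 0 drawn at the foot) in the 3 other WT and 3 KO libraries, where lines only join the points of a gene. The secondary granule genes form a narrow band in wt_290 and ko_306, while in ko_306 the primary granule genes spread from 0.353% (Ctsg) to 21.6% (Prtn3).

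Markers of other blood cells also differed between libraries. The 9 eosinophil markers had a sum in KO that stayed below the lowest WT sum, by a narrow margin. They summed to 1040, 117, 259 and 4.88 CPM in wt_284, wt_290, wt_310 and wt_312, and to 3.96, 0.895 and 3.82 CPM in ko_306, ko_314 and ko_320. The gap between wt_312 and ko_306 rests on few counts. The largest were 14 for Ccr3 and 13 for Il5ra in wt_312, and 16 for Siglecf in ko_306. Prg2, the eosinophil major basic protein, stood at 548, 61.8, 152 and 0 CPM in WT and at 0.775, 0 and 0.637 CPM in KO. Prg3 and Ear6 were at 0 CPM in wt_312 and at most 0.255 CPM in KO. Of the 9 markers 8 had an unadjusted p under 0.05, against 1.99% of all genes lower at that level, and 0 were called by edgeR. Without wt_284, 7 of the 9 failed the filter. Markers that passed the filter only through their WT level had to differ, so these counts are descriptions. Basophil and mast cell markers (8 genes, of which Cma1 and Tpsb2 had no count) summed to 91.3 CPM in wt_284, 8.86 to 33.0 CPM in the rest of WT and 0 to 8.09 CPM in KO. B cell markers (11 genes) summed to 211 CPM in wt_284, 12.1 to 22.9 CPM in the rest of WT and 13.002 to 16.0 CPM in KO. T and NK cell markers summed to 43.5 CPM in wt_284 and 8.73 to 16.8 CPM elsewhere. Megakaryocyte, dendritic cell and early progenitor markers were at 323, 216 and 296 CPM in wt_284, and within 352 to 539, 157 to 223 and 210 to 275 CPM in the other libraries. The part of these cells in the differences above was not tested.

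Monocyte and macrophage genes overlapped between the genotypes, with a small ratio of means once wt_284 was set aside. They summed to 2823, 264, 352 and 143 CPM in wt_284, wt_290, wt_310 and wt_312, and to 239, 177 and 158 CPM in ko_306, ko_314 and ko_320. The means were 895 ± 1288 CPM (SD, n = 4) and 191 ± 42.0 CPM (SD, n = 3), a ratio of 4.68, or 1.32 without wt_284. Of the 12 genes 11 were tested, with a median log2 fold change of -2.72 (-0.36 over the 9 genes tested without wt_284). An unadjusted p under 0.05 was reached by 2, against 1.99% of all tested genes lower at that level.

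Lyz2, which encodes lysozyme M of neutrophils, monocytes and macrophages, made up most of this sum. It stood at 2002, 179, 252 and 90.2 CPM in WT and at 175, 115 and 125 CPM in KO, so it stayed well above the floor in every library. Its close copy Lyz1 had at most 6 counts. The log2 fold change of Lyz2 was -2.19 ± 1.28 (SE), and -0.33 ± 0.37 (SE) without wt_284. Per kilobase of exon, S100a9 was above Lyz2 in wt_284 (6700 against 1521 CPM per kb) and in ko_306 (308 against 133). In ko_314 and ko_320 Lyz2 was above S100a9, at 87.1 against 43.7 and 94.8 against 36.4 CPM per kb.

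Plac8, a cysteine-rich protein of progenitors and monocytes, stood at 83.3, 34.7, 26.0 and 30.4 CPM in WT and at 24.7, 31.5 and 24.3 CPM in KO. It was nearly level outside wt_284, with a log2 fold change of -0.18 and an interval from -0.71 to 0.36 without that library. Cd68, a lysosomal protein of macrophages, stood at 21.5, 4.06, 5.65 and 0.771 CPM in WT and at 5.60, 9.39 and 3.06 CPM in KO. Its log2 fold change was -0.41 with all libraries and 0.78 without wt_284.

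Several monocyte genes were lowest in KO at small counts. F13a1, a coagulation factor subunit made by monocytes, stood at 283, 10.9, 26.1 and 7.71 CPM in WT and at 7.23, 2.83 and 0 CPM in KO, with a log2 fold change of -4.53 ± 2.03 (SE), or -2.11 ± 1.18 (SE) without wt_284. Ly6c2 stood at 112, 7.37, 7.34 and 2.95 CPM in WT and at 1.98, 1.64 and 0 CPM in KO, with -4.70 ± 1.94 (SE), or -2.26 ± 1.02 (SE) without wt_284. Ly86, the partner of the receptor RP105, had 127, 13, 30 and 7 counts in WT and 9, 0 and 0 counts in KO. These 3 genes did not overlap in CPM, as held for 2.43% of all tested genes. For F13a1, Ly6c2 and Ly86, wt_312 had 60, 23 and 7 counts and ko_306 had 84, 23 and 9. Between these libraries KO was thus lower only after scaling for depth. With no filter edgeR called Ly86 (adjusted p 0.0336) but not the others (0.725), where 0.256% of all genes were called lower. Ly6c2 belongs to a family of close copies, and the table gave its neighbour Ly6c1 at most 18 counts in a library, so how reads were split between them can affect its value.

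Defining macrophage and monocyte receptors had few counts outside wt_284. Csf1r, the receptor of macrophage colony-stimulating factor, had 454, 31, 40 and 0 counts in WT and 33, 22 and 7 in KO, so wt_312 was the lowest library. Adgre1, which encodes F4/80, and Cd14, the co-receptor for lipopolysaccharide, had 0 counts in wt_312 and at most 13 in a KO library. Cd36, a scavenger receptor, stood at 25.6 CPM in wt_284, 2.75 to 3.98 CPM in the rest of WT and 1.40 to 2.98 CPM in KO. Mpeg1, a pore-forming protein of macrophages, had a log2 fold change of -2.72 ± 1.57 (SE), and Vcan, the proteoglycan versican, had -1.54 ± 0.94 (SE). Without wt_284 they were -0.52 ± 0.60 and -0.24 ± 1.00 (SE). None of these 6 genes separated the genotypes.

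The oxidase subunits were spread over libraries much as the secondary granule genes were. Cybb (chromosome X, 9435252 to 9487771), the catalytic subunit of the phagocyte NADPH oxidase, stood at 575, 36.6, 40.0 and 7.19 CPM in WT and at 21.01, 0 and 0.509 CPM in KO. Ncf1, its cytosolic organiser p47phox, stood at 430, 33.1, 35.0 and 10.3 CPM in WT and at 25.7, 4.62 and 6.62 CPM in KO. Both placed ko_306 above wt_312. Log2 fold changes were -4.43 ± 2.34 (SE) for Cybb and -3.33 ± 1.69 (SE) for Ncf1, and -1.90 ± 1.81 and -1.06 ± 0.75 (SE) without wt_284.

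Hvcn1, the voltage-gated proton channel that keeps the oxidase running, had another order of libraries. It stood at 33.3, 11.0, 9.78 and 13.4 CPM in WT and at 5.25, 2.83 and 7.39 CPM in KO, so wt_312 was not its lowest WT library and the genotypes did not overlap. Its log2 fold change was -1.70 ± 0.51 (SE), and -1.13 ± 0.49 (SE) without wt_284, with the smallest unadjusted p of the 38 tested genes, 0.00602, and an adjusted p of 0.992 in edgeR. Over the 16 alternatives the adjusted p was at least 0.0614.

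Of 7 further genes that work with the oxidase, all 7 were tested and 7 had negative log2 fold changes, as did 52.4% of all tested genes. Of the 7, 0 were called by edgeR and 0 had an unadjusted p under 0.05. Their median was -0.57, and -0.07 without wt_284. Cyba, the small membrane subunit, stood at 83.5 CPM in wt_284, 20.8 to 33.8 CPM in the rest of WT and 17.9 to 27.5 CPM in KO. The genotypes overlapped for Cyba, which had counts in every library, whereas Cybb was at 0 in ko_314.

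As a sum, regulators and receptors varied least. They summed to 526, 138, 147 and 122 CPM in wt_284, wt_290, wt_310 and wt_312, and to 113, 132 and 119 CPM in ko_306, ko_314 and ko_320. The highest library was 4.65 times the lowest, against 576 times for the secondary granule sum and 49.1 times for the primary granule sum. Most of the regulator sum was Spi1 and Csf3r, whose highest library was 4.72 and 4.34 times the lowest. Single genes varied more: 14.8 times for Cebpa, 19.7 times for Cebpd and 25.2 times for Irf8. Cebpe ran from 19.6 to 0 CPM. The ratio of WT to KO means was 1.93, and 1.12 without wt_284. All 6 genes were tested, and their median log2 fold change was -1.57 (-0.26 over the 5 genes tested without wt_284).

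Spi1 (chromosome 2, 91082390 to 91115756), which encodes PU.1, stood at 124, 46.2, 46.5 and 26.3 CPM in WT and at 38.1, 61.9 and 57.6 CPM in KO. Outside wt_284 its highest values were in KO libraries, and its log2 fold change went from -0.21 ± 0.52 (SE) to 0.41 ± 0.26 (SE) without wt_284, with an interval from -0.14 to 0.96. Csf3r (chromosome 4, 126024550 to 126044440), the receptor of granulocyte colony-stimulating factor, stood at 215, 64.3, 73.5 and 74.7 CPM in WT and at 61.1, 53.7 and 49.4 CPM in KO. Every KO library was below every WT library by a narrow margin. Its log2 fold change was -0.96 ± 0.46 (SE), and -0.37 ± 0.18 (SE) without wt_284.

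Irf8 (chromosome 8, 120736358 to 120756694), the factor that steers precursors towards monocytes, stood at 89.9, 12.7, 19.0 and 12.3 CPM in WT and at 5.86, 6.26 and 3.57 CPM in KO. The groups did not overlap, and the counts behind the KO values were 28 to 68. Its log2 fold change was -2.67 ± 0.87 (SE). Without wt_284 it was -1.48 ± 0.44 (SE), with an unadjusted p of 0.00418, where 1.03% of all genes were lower at an unadjusted p under 0.05. The adjusted p was 0.992 with all libraries and 0.999 without wt_284.

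Cebpe, the factor required for secondary granules, had 162, 32, 25 and 9 counts in WT and 14, 0 and 0 counts in KO. Scaled for depth, wt_310 was above wt_290 (3.82 against 3.02 CPM) and ko_306 just above wt_312 (1.21 against 1.16 CPM). Its log2 fold change was -3.92 ± 1.44 (SE), it was not tested without wt_284, and edgeR with no filter called it (adjusted p 0.0155). Cebpa, the factor required for granulocyte and monocyte progenitors, stood at 20.4, 6.33, 1.38 and 3.47 CPM in WT and at 2.67, 3.13 and 3.57 CPM in KO. Cebpd stood at 57.2 CPM in wt_284 and at 2.90 to 6.56 CPM elsewhere. Neither Cebpa nor Cebpd separated the genotypes, and Cebpd turned to 0.30 without wt_284.

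At 10 CPM or more in every library stood 6 of the 39 genes: Prtn3, S100a9, Lyz2, Plac8, Spi1 and Csf3r. All 39 genes had a count in wt_284, wt_290, wt_310 and ko_306, whereas 5 were at 0 in wt_312, 6 in ko_314 and 10 in ko_320. Lcn2, Ly86 and Cebpe were at 0 in both ko_314 and ko_320.

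A list of 50 further myeloid genes showed the same dominance of wt_284. Of 47 tested, 45 had negative and 2 positive log2 fold changes, and 52.4% of all tested genes were negative. An unadjusted p under 0.05 was reached by 6, against 1.99% of all tested genes lower at that level, and 0 were called by edgeR. The median was -2.06, and -0.28 over the 42 genes tested without wt_284. Of the 50, 46 were highest in wt_284, against 23.1% of all tested genes. Those with the smallest p were Clec4d, a C-type lectin, Fpr1, the formyl peptide receptor, and Fcgr2b, which encodes CD32. Clec4d and Fpr1 failed the filter without wt_284. Fpr1 stood at 39.6, 2.55, 2.90 and 0 CPM in WT and at 0.0861, 0 and 0 CPM in KO, and Clec4d at 14.2, 2.08, 3.06 and 0.514 CPM and at 0.947, 0 and 0.382 CPM. Fcgr2b, which encodes part of the CD16/CD32 antigen in the antibody panel, stood at 24.4, 4.72, 6.72 and 3.98 CPM in WT. It stood at 2.76, 1.34 and 0 CPM in KO, without overlap, and edgeR with no filter called it (adjusted p 0.0228). Fcgr3, the CD16 gene on this list, did overlap, at 0.514 CPM in wt_312 and 1.72 CPM in ko_306. Unlike the secondary granule genes, Fpr1 was nearly absent from ko_306.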

How the data were processed

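RNA of sorted LT-HSCs was sequenced from 4 WT and 3 KO mice, 1 library a mouse, with a stranded low-input kit per the labels' protocols. The authors deposited estimated counts by gene, already whole and unscaled. Cutadapt and Salmon are the tools listed in the submitters' processing notes. Their versions, the annotation and any rounding were not given. Names tie all 7 columns to their samples. GENCODE M21 (GRCm38) holds 98.1% of the table's identifiers at an equal version and supplied positions and exon lengths.

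KO was compared with WT by edgeR 4.0.16 under R 4.3.3, using filterByExpr, TMM factors, the robust quasi-likelihood test and Benjamini-Hochberg adjustment over 15372 genes with a threshold of 0.05. Standard errors are the absolute log2 fold change over the root of F. CPM use TMM factors, and a count of 0 allows up to 3 counts. Other runs used DESeq2 1.42.0, limma 3.58.1 (voom), other scalings and filters, and fewer mice. The code was tested on simulated data. Genes, groups and lists were chosen with earlier results of these data known. Values in every library are given for members that lead their group by level or p, or that do not overlap, and for up to 3 genes of another list by p. Ctsg, Cd68, Csf1r and Cebpa were added after their values were seen. P-values measure the spread between mice. The labels name no batch, litter or sort day, so none was fitted. Every pair of libraries differed beyond sampling noise (chi-square per degree of freedom at least 7.61).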

Additional observations from a re-analysis of the deposited data

Results flagged for a closer look

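In the WT group, wt_284 lay far above the other 3 libraries, by Dixon's test at the 95% level, for 34 of the 39 genes and for all 6 group sums. Chance marks about 1 group in 20, counting any library of the group at either end. For a single named library at the high end, chance marks fewer groups than that. The library wt_284 lay far above the others for 3.57% of all 15372 tested genes, a share not comparable with 1 in 20. The genes share the same 7 libraries, so these cases are not independent. Groups of 3, such as KO, are not tested.

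Its summed levels were 1450 CPM for primary granule, 7926 for secondary granule, 5918 for late neutrophil, 2823 for monocyte, 1038 for oxidase and 526 for regulator genes. Among primary granule and early precursor genes it stood at 1084 CPM for Mpo, 148 for Elane, 73.2 for Ctsg, 16.5 for Ms4a3 and 34.1 for Fcnb. Among secondary granule genes it stood at 2952 CPM for Ngp, 2775 for Ltf, 340 for Camp, 854 for Lcn2, 543 for Mmp8, 369 for Chil3 and 93.3 for Pglyrp1. Late neutrophil genes stood at 1442 CPM for S100a8, 3497 for S100a9, 559 for Mmp9, 318 for Retnlg and 102.2 for Ifitm6. Monocyte genes stood at 55.0 CPM for Csf1r, 112 for Ly6c2, 283 for F13a1, 15.3 for Vcan, 9.82 for Cd14, 20.97 for Adgre1, 179 for Mpeg1, 25.6 for Cd36, 2002 for Lyz2 and 83.3 for Plac8. The others were Cybb at 575 CPM, Ncf1 at 430, Hvcn1 at 33.3, Cebpd at 57.2, Cebpe at 19.6, Irf8 at 89.9 and Csf3r at 215. Prtn3, Ly86, Cd68, Cebpa and Spi1 were also highest in wt_284 but not far enough to be marked.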

How the results depend on the processing

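No paired analysis was possible because the mouse numbers are unique to each sample. edgeR called 1 gene of all tested. The count was 10 in DESeq2, 81 with no filter, 0 in limma-voom, 7 with mice numbered above 300, and 1 to 3 when single mice were left out. DESeq2 without wt_284, an alternative added after seeing the data, called 6. Members called lower were 0, where 0.00651% of all tested genes were called lower (this share is in brackets for the other runs). The number was 1 in DESeq2 with all libraries (0.0651%) and without wt_284 (0.0336%). It was 4 with no filter (0.256%), 1 with mice above 300 (0.019%), and 0 when single mice were left out of edgeR. Members called higher were 0 in every alternative run.

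With single mice left out, median log2 fold changes ran from -7.60 to -1.72 for secondary granule genes, -3.06 to -0.36 for monocyte genes, -4.49 to -1.13 for oxidase genes and -1.91 to -0.26 for regulators, and the log2 ratio of oxidase sums from -4.81 to -1.41. The values nearest 0 were those without wt_284, and the secondary granule and oxidase values farthest from 0 were those without ko_306. DESeq2 without wt_284 gave medians of -0.37 (monocyte), -1.14 (oxidase) and -0.27 (regulators), and limma-voom gave -1.03 for monocyte genes. With mice above 300 the medians were -0.75 for primary granule, -1.23 for secondary granule, -0.32 for monocyte, -1.16 for oxidase and 0.37 for regulator genes, and the log2 ratios of sums were -1.54, -1.16 and -1.22 for primary granule, secondary granule and oxidase genes. Without Mpo, which was tried after seeing the data, the primary granule log2 ratio was -2.43, against -3.92 with it.

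Cd68, Cebpd and Spi1 changed sign. Left-out mice gave -0.84 to 0.78 for Cd68, -2.14 to 0.30 for Cebpd and -0.44 to 0.41 for Spi1. Mice above 300 gave 0.91, 0.57 and 0.53 for these genes, and 0.37 for Cebpa. DESeq2 without wt_284 gave 0.77, 0.28 and 0.40, and limma-voom gave 0.28 for Cd68. Limma-voom used all 7 libraries and all 15372 tested genes, and the other fits named here used fewer mice. The cause of the sign changes was not tested. In ko_314 and ko_320 many granule genes had under 30 counts, which limits what their ratios can show.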
